A study of Mus musculus with 6 samples.

Results

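The 37 genes described here are mouse counterparts of genes in which rare, mostly loss-of-function variants are linked to autism and intellectual disability in people. They were chosen by name, not by a threshold on measured values, from a list drawn up with earlier results of these data known, and all 37 had a row among the 34866 in the count table. All 37 also had enough counts to be tested, among 15216 tested genes. Many of these genes are dosage sensitive, so that loss of 1 copy is enough to disturb brain development. They fall into a few broad roles. Some regulate chromatin and transcription in newborn neurons, some act on RNA, translation and protein turnover, some restrain growth signalling, and some build the scaffold beneath synapses and along axons.

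Forebrain RNA of mouse embryos was sequenced at E14.5, an age at which cortical neurons are being born. The 3 samples labelled mutant carried 1 floxed and 1 null Sap130 allele (f/-) together with Emx1-cre. The 3 littermate controls carried 1 floxed and 1 wild-type allele (f/+), also with Emx1-cre. All 6 samples thus shared the floxed allele and the driver, which recombines in the dorsal telencephalic lineage, while the tissue taken was forebrain. Sap130 is a component of the Sin3 complex, which removes acetyl groups from histones. Sample titles begin with SPF-539 (2 libraries, replicate 1 of each group) or SPF-552 (the other 4), and the labels do not say what this number marks.

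The libraries held 20775583 to 25999874 estimated counts. The targeted gene went against its label. Sap130 stood at 82.8, 84.9 and 84.4 CPM (counts scaled by library size) in controls 1 to 3 and at 137.7, 124.1 and 124.05 CPM in mutant-labelled libraries, with a log2 fold change of 0.61 (standard error 0.076; edgeR adjusted p = 0.0116). Every direction below is therefore that of the libraries as labelled, and "mutant" means labelled mutant. Gene-level counts also take in exons outside the floxed part, so they do not show whether the allele was deleted. Forebrain markers were present in every library, with Neurod6 of excitatory neurons at 135 to 289 CPM and Dlx1 of the ganglionic eminences at 286 to 413 CPM. Replicate 1 labelled mutant stood apart by annotated exon length. Its log2 CPM, relative to the mean of the libraries, went up by 0.0962 per doubling of exon length, against -0.0253 to -0.00506 in the other 5 libraries. The main axis of variation between libraries (first principal component of log2 CPM, 29.5%) set both SPF-539 libraries apart. They lay at -33.8 (mutant) and -21.4 (control), and the SPF-552 libraries at 11.8 to 15.7.

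None of the 37 genes passed a false discovery rate (FDR) of 0.05 in the edgeR quasi-likelihood fit, which 0.138% of all tested genes passed. Their log2 fold changes, labelled mutant minus control, ran from -0.25 for Tcf4 to 0.28 for Tanc2, with standard errors of 0.0713 to 0.191. The median was 0.09, against -0.000306 over all tested genes, and 28 of the 37 lay above 0, against 49.9% of all tested genes. At an unadjusted p under 0.05 there were 5 genes higher (Ppp2r5d, Tanc2, Tnrc6b, Tsc2 and Shank3) and 1 lower (Tcf4), where 5.22% of all tested genes were higher and 4.38% lower, 9.6% in all. These shares are also the background for the counts at that level in every gene list below. The authors' deposited table, which lists 369 genes up to an FDR of 0.0994, holds 0 of the 37.

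The upward shift was largely that of 1 library. Relative to the mean of the controls, on the log2 CPM scale, the median of the 37 genes was 0.209 in mutant replicate 1 and 0.0152 and 0.0237 in mutant replicates 2 and 3. In controls 1 to 3 it was -0.0279, 0.00723 and 0.0235. The highest of the 6 values belonged to mutant replicate 1 in 28 of the 37 genes, against 25.7% of all tested genes. Without that library the median log2 fold change of the 37 was 0.02, with 1 of them called (Tcf4) where 2.14% of all genes tested were.

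**Figure D1:**
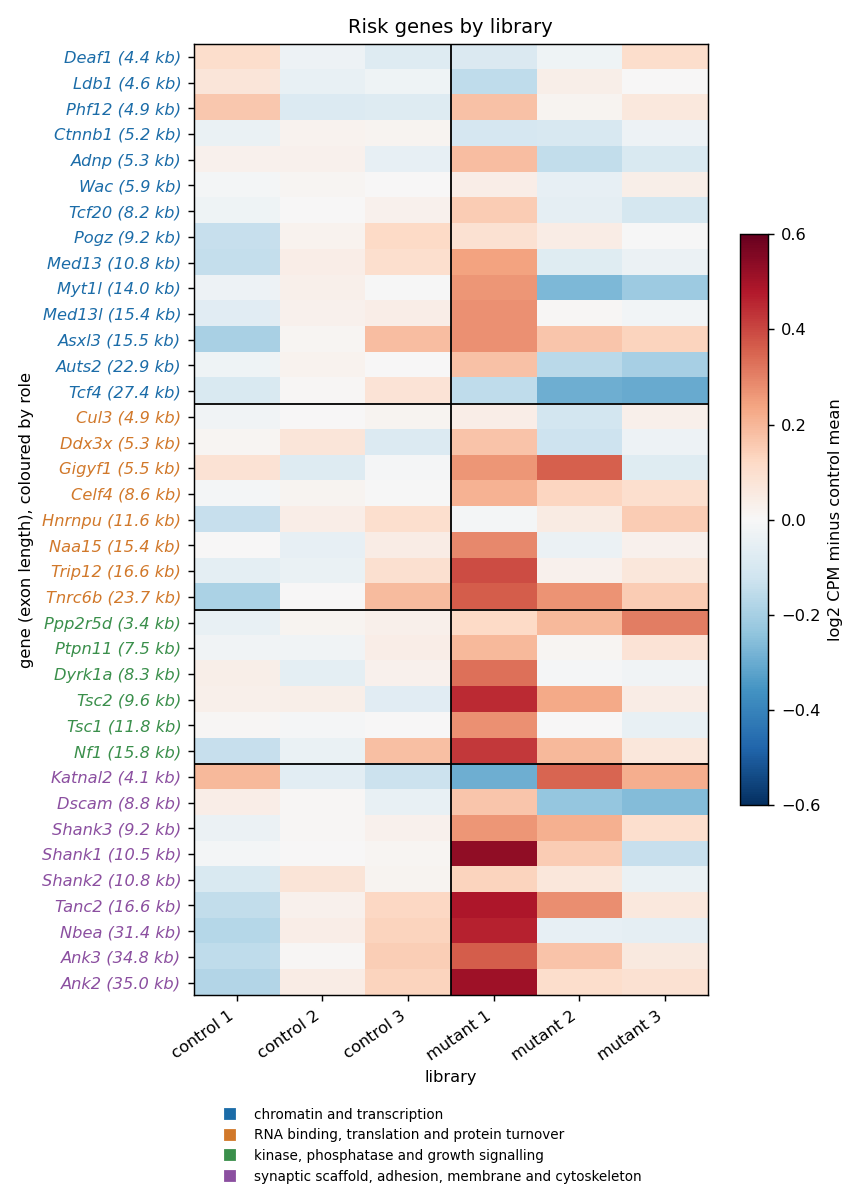
Level of each of the 37 genes (rows, grouped by role and ordered by exon length in kb) in each library (columns), as log2 CPM minus the mean of the 3 controls. Red is above and blue below the control mean; the column of mutant replicate 1 is red in most rows, most strongly in long genes such as Ank2 and Shank1, while Tcf4 is blue in all 3 mutant columns.

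These genes are long in annotated exons, taken as the union over all isoforms. Their annotated exons add up to 3.4 to 35 kb per gene with a median of 9.62 kb, against a median of 4.44 kb over tested genes, and 18 of the 37 exceed 10 kb, against 9.66% of tested genes. Over all tested genes the median deviation of mutant replicate 1 from the control mean was -0.241 for exons under 2 kb and 0.304 for exons over 16 kb. Among the 18 members over 10 kb it was 0.282 in mutant replicate 1, and 0.0387 and 0.00284 in mutant replicates 2 and 3. For the same members it was -0.116, 0.0158 and 0.0998 in controls 1 to 3. Among the other 19 members it was 0.167 in mutant replicate 1. Across the 37 genes, which share libraries and are not independent, Spearman's rho between fold change and exon length was 0.33, and it was -0.0306 without mutant replicate 1. The length trend and the genotype cannot be told apart within that library.

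**Figure D2:**
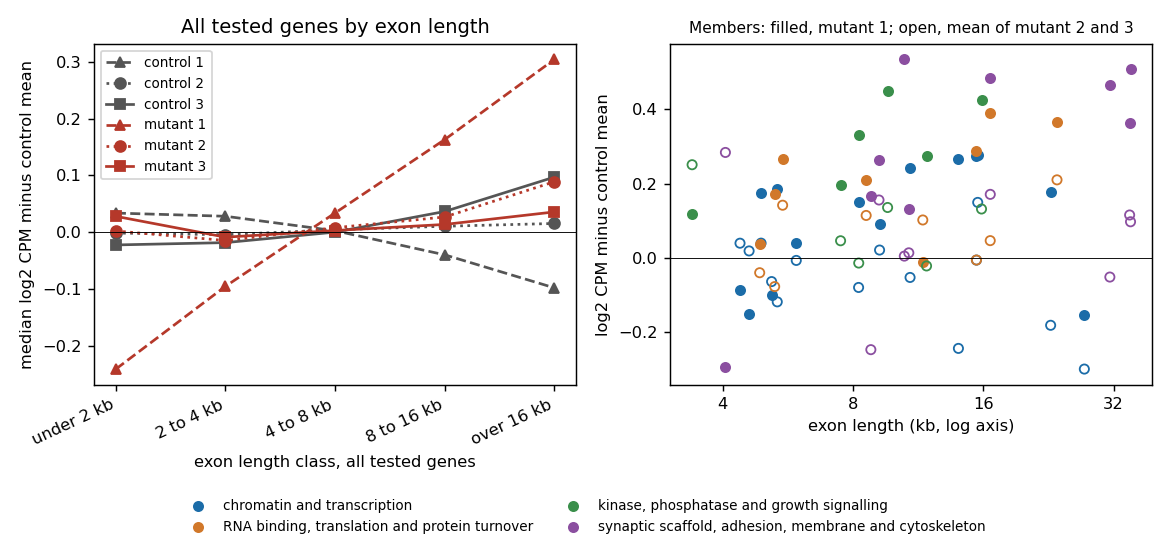
Left, median log2 CPM minus the control mean over all tested genes in 5 classes of exon length, 1 line per library. Right, the 37 genes by exon length (kb, log axis) in mutant replicate 1 (filled) and as the mean of mutant replicates 2 and 3 (open); mutant replicate 1 runs from -0.241 under 2 kb to 0.304 over 16 kb.

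A second fit therefore removed, from each library, the smooth trend of its values with exon length. The median of the 37 genes was then 0.004, with 20 above 0, where 50.4% of all tested genes were above 0. With the offset, the fold changes of 24 genes lay within 0.1 of 0 on the log2 scale, and most of these lay there without it too. Celf4, Ank2, Ank3, Asxl3, Trip12, Dyrk1a and Nbea came into this range with the offset, while Dscam, Auts2 and Myt1l left it. The share of all tested genes in this range was not counted. Tcf4 was the 1 gene that passed an FDR of 0.05 with this offset, where 0.447% of all tested genes did. An offset of this kind takes away any real difference that goes with exon length, too.

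**Figure D3:**
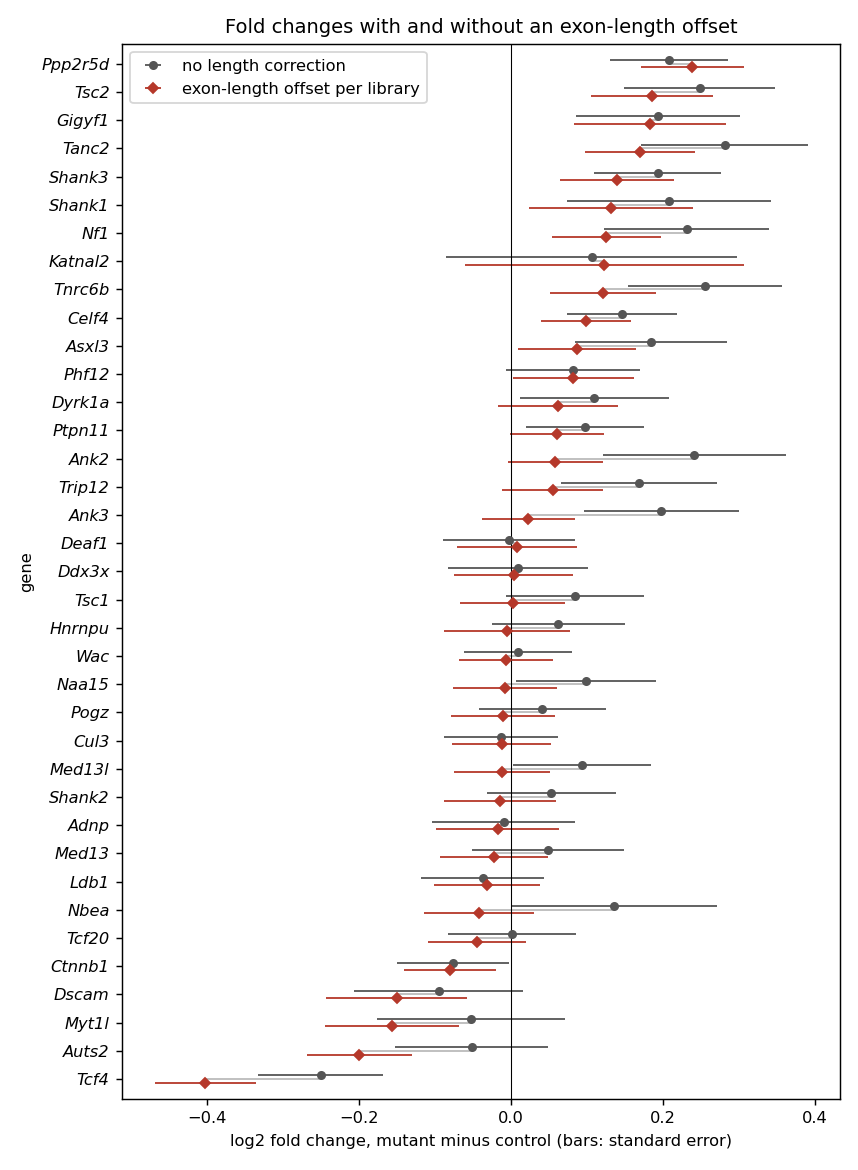
Log2 fold change (labelled mutant minus control) of each of the 37 genes, with its standard error, without a length correction (grey circles) and with the exon-length offset (red diamonds). Most genes move towards 0 with the offset, Ank2 from 0.24 to 0.06, while Tcf4 moves from -0.25 to -0.40 and Ppp2r5d stays at 0.21 and 0.24.

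Among the 14 genes of chromatin and transcription, 7 lay above 0 and 7 below, with a median of -0.0000761. With the exon-length offset 3 lay above 0 (median -0.02), and without mutant replicate 1 there were 5 (median -0.03). Tcf4 encodes a basic helix-loop-helix E protein that pairs with proneural and neuronal partners, and its loss in people causes Pitt-Hopkins syndrome. It lies on chromosome 18 (GRCm38, 69343356 to 69689079, plus strand). Its level was 569.6, 608 and 643 CPM in controls 1 to 3 and 545, 495 and 491 CPM in mutant replicates 1 to 3. Every library labelled mutant lay below every control, though mutant replicate 1 was only a little under control replicate 1. The log2 fold change was -0.25 (standard error 0.083), and the gene did not pass (edgeR adjusted p = 0.331, Benjamini-Hochberg). With the exon-length offset the log2 fold change was -0.40 (standard error 0.066) (adjusted p = 0.0307 by the same edgeR test). Without mutant replicate 1 and without an offset it was -0.30 (edgeR adjusted p = 0.036). With the offset, where 2.73% of all genes tested were called without mutant replicate 1, the call was kept without mutant replicate 1 (edgeR adjusted p = 0.00257) and lost on leaving out any other single library (edgeR adjusted p = 0.0633 to 0.208). In those 5 fits the log2 fold change was -0.384 to -0.439, about as large as with all libraries. The offset took Tcf4 at 27.4 kb, the union of exons over all isoforms, which can be longer than its transcripts. The effect of that choice of length on the call was not tested. In bulk tissue, fewer cells that express the gene and less RNA per cell cannot be told apart. Of 9 excitatory neuron markers, whose summed level was 1684 to 1764 CPM in controls and 1188 to 1449 CPM in mutant-labelled libraries, 3 fell by edgeR's test, among them Neurod6 and Neurod2 at -0.90 and -0.75. Their part in the Tcf4 result was not tested.

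The groups overlapped for both other E proteins. Tcf3 was at 207 ± 6.51 CPM in controls and 209.6 ± 24.8 CPM in mutant-labelled libraries, and Tcf12 at 209.3 ± 24.8 and 204 ± 14.2 CPM (SD, n = 3 each). Id2, which encodes an inhibitor that sequesters E proteins, fell from 58.02 ± 2.68 to 32.5 ± 2.27 CPM (SD, n = 3; edgeR adjusted p = 0.00387). Ldb1, a LIM-domain cofactor, was at 275 ± 12.3 and 268 ± 18.2 CPM.

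Myt1l, a zinc-finger repressor that holds neurons in their neuronal identity, and Auts2, which acts with a non-canonical Polycomb complex and on the neuronal cytoskeleton, differed between mutant libraries. Myt1l stood at 219.97, 229 and 224 CPM in controls and at 269.8, 186 and 193 CPM in mutant replicates 1 to 3. Auts2 stood at 360.2, 372 and 368 CPM in controls and at 414, 328 and 319 CPM in mutant-labelled libraries. In both genes mutant replicate 1 was the highest library and mutant replicates 2 and 3 were the lowest. The log2 fold changes were -0.05 for each (standard errors 0.12 and 0.10). With the exon-length offset they were -0.16 and -0.20, with edgeR adjusted p = 0.608 and 0.301. Among the SPF-552 libraries alone, 2 against 2, Myt1l was lower by a log2 difference of -0.26 (edgeR adjusted p = 0.0133), where 3.7% of all genes tested passed.

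Asxl3, a partner of the histone H2A deubiquitinase BAP1, had 60.6, 69.9 and 78.7 CPM in controls and 83.9, 77.7 and 76.1 CPM in mutant-labelled libraries, so that the groups overlapped. Its log2 fold change was 0.19 (standard error 0.10; edgeR adjusted p = 0.604). Med13 and Med13l tie the kinase module to the core of Mediator, the coactivator that bridges transcription factors and RNA polymerase II. Med13 had 187, 213 and 222 CPM in controls and 244, 197 and 202 CPM in mutant-labelled libraries. Med13l had 113, 120.2 and 121 CPM in controls and 143, 119 and 116 CPM in mutant-labelled libraries. Each was highest in mutant replicate 1, and their log2 fold changes of 0.05 and 0.09 turned to -0.02 and -0.01 with the exon-length offset. Of the 7 genes of the Mediator kinase module none passed, with 0 at an unadjusted p under 0.05, and the median was 0.05. The lead by p was Med12 at 0.13, followed by Ccnc at -0.16.

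The remaining chromatin genes had fold changes within 0.1 of 0. Ctnnb1, which encodes beta-catenin of the Wnt pathway and of cell junctions, was at 1269 ± 28.4 CPM in controls and 1205 ± 33.5 CPM in mutant-labelled libraries (SD, n = 3; log2 fold change -0.08, standard error 0.074). Adnp, a zinc-finger homeobox protein of the ChAHP repressor complex, was at 283 ± 8.62 and 282 ± 35.7 CPM. The exons of a second annotated gene on the same strand, Gm20716, cover 82.1% of its exon bases, so its count depends on how shared reads were assigned. Pogz, a zinc-finger protein that binds heterochromatin protein 1, was at 138.7 ± 12.4 and 143 ± 4.61 CPM. Tcf20, a nuclear coregulator related to Rai1, was at 202 ± 3.75 and 202 ± 19.4 CPM. Wac, an adaptor of histone H2B ubiquitination, was at 155 ± 1.26 and 156 ± 5.36 CPM. Deaf1, a DNA-binding regulator, was at 69.8 ± 4.67 and 69.7 ± 4.84 CPM, and Phf12, which recruits Sin3 to chromatin, at 111 ± 10.98 and 118 ± 6.70 CPM (SD, n = 3 each). The SD of Adnp, Tcf20 and Wac was more than 4 times as large among the libraries labelled mutant as among controls.

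In the kinase, phosphatase and growth group all 6 genes lay above 0, with a median of 0.16 and none called. The median was 0.09 with the exon-length offset, with 6 above 0, and 0.09 without mutant replicate 1, with 4 above 0. Ppp2r5d encodes a regulatory subunit that directs protein phosphatase 2A to its substrates, in a gene on chromosome 17 (GRCm38, 46682991 to 46705111, minus strand). Its exons of 3.4 kb are the shortest of the 37. The level was 125.5, 131 and 132 CPM in controls and 141, 148 and 160.5 CPM in mutant replicates 1 to 3. All 3 libraries labelled mutant lay above all 3 controls, and mutant replicate 1 was the lowest of the 3. The log2 fold change was 0.21 (standard error 0.078; edgeR adjusted p = 0.403), and 0.24 with the exon-length offset (edgeR adjusted p = 0.189). It passed among the SPF-552 libraries alone (0.23, edgeR adjusted p = 0.0398). The antisense gene Mea1 shares 121 exon bases with it, or 3.6% of its exons, and stood at 46.4 ± 0.578 and 42.96 ± 7.04 CPM (SD, n = 3). Of the 9 PP2A subunits tested, 1 was higher (Ppp2r5d) and 1 lower (Ppp2r1b, a scaffold subunit, -0.19) at an unadjusted p under 0.05, and none passed over all genes. Ppp2r5a, the next by p, had 0.17.

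Tsc1 and Tsc2 form the complex that switches off the GTPase Rheb and so restrains mTOR. Tsc2 had 164, 165 and 153 CPM in controls and 219, 188 and 166 CPM in mutant-labelled libraries. The groups did not overlap, but mutant replicate 3 was within 2 CPM of control replicate 2. Tsc1 had 107, 107 and 107 CPM in controls and 129, 107 and 104 CPM in mutant-labelled libraries. Only mutant replicate 1 stood above the controls. The log2 fold changes were 0.25 for Tsc2 and 0.08 for Tsc1 (standard errors 0.099 and 0.091, edgeR adjusted p = 0.443 and 0.816). With the exon-length offset Tsc2 had 0.19 and Tsc1 0.003, and without mutant replicate 1 they had 0.14 and -0.02. Tsc2 shares 7.2% of its exon bases with the antisense gene Pkd1, which stood at 89.8 ± 8.20 and 102 ± 15.6 CPM.

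Nf1, whose product neurofibromin turns off Ras, had 99.3, 106 and 124 CPM in controls and 147, 125 and 114.5 CPM in mutant-labelled libraries, with overlap. Its log2 fold change was 0.23 (standard error 0.11) and 0.13 with the offset. Ptpn11, a phosphatase that carries receptor signals to Ras, was at 254 ± 5.95 and 272 ± 17.7 CPM. Dyrk1a, a dosage-sensitive kinase in the Down syndrome region in people, was at 153 ± 5.27 and 165 ± 23.6 CPM (SD, n = 3 each). Across 27 genes of the TSC, mTOR and RAS pathway none passed, 2 were higher and 0 lower at an unadjusted p under 0.05, and the median was 0.04. Mtor led them at 0.26 (edgeR adjusted p = 0.331).

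Among the 8 genes of RNA binding, translation and protein turnover, 7 lay above 0 with a median of 0.12, and none was called. There were 5 above 0 both with the exon-length offset (median 0.03) and without mutant replicate 1 (median 0.07). Tnrc6b encodes the scaffold through which Argonaute proteins silence mRNAs bound by microRNAs. It had 122, 139 and 159 CPM in controls and 179, 167 and 154 CPM in mutant-labelled libraries. Control replicate 3 lay above mutant replicate 3. The log2 fold change was 0.26 (standard error 0.10; edgeR adjusted p = 0.443), and 0.12 with the exon-length offset. Celf4, a brain-enriched RNA-binding protein that restrains excitability in mice, had 252, 257 and 254 CPM in controls and 294, 278 and 272 CPM in mutant-labelled libraries. The groups did not overlap. Its log2 fold change was 0.15 (standard error 0.073), and 0.0992 with the offset (edgeR adjusted p = 0.56 and 0.629).

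Gigyf1, a partner of the cap-binding repressor 4EHP, was at 87.2 ± 5.03 CPM in controls and 99.7 ± 15.2 CPM in mutant-labelled libraries. Naa15, the ribosome anchor of the N-terminal acetyltransferase NatA, was at 172 ± 5.74 and 184 ± 22.6 CPM. Trip12, a HECT ubiquitin ligase, was at 360.3 ± 21.6 and 405 ± 57.8 CPM. Cul3, the scaffold of BTB-adaptor ubiquitin ligases, was at 186 ± 2.63 and 184 ± 10.4 CPM. Hnrnpu, a nuclear RNA- and chromatin-associated protein, was at 959.8 ± 81.9 and 1003 ± 57.7 CPM (SD, n = 3 each). None of these 5 separated the groups. In the list of 13 genes of microRNA silencing and 4EHP repression all lay above 0 and none passed, with 3 higher at an unadjusted p under 0.05. Ago2, the slicing Argonaute, led at 0.44 (154 ± 14.54 and 209 ± 22.4 CPM, edgeR adjusted p = 0.131), and Ago3 had 0.26. The list's median was 0.09, and 0.03 with the exon-length offset, where 9 lay above 0. Without mutant replicate 1, 11 lay above 0 and the median was 0.07. Ago2 then passed (0.35, edgeR adjusted p = 0.029), where 2.14% of all genes tested did. Sin3a, Tcf7l2 and Lmo1, of lists given below, passed in that fit as well (0.34, 0.45 and -0.41, edgeR adjusted p = 0.0165, 0.0117 and 0.0439). With the offset and all libraries Ago2 did not pass (0.35, edgeR adjusted p = 0.0664). Of 13 partners of CUL3 and NatA none passed, with 0 at an unadjusted p under 0.05, and the median was -0.02, with Kctd13 leading at -0.20, then Rbx1 at -0.18 and Klhl20 at -0.19.

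Ddx3x encodes an RNA helicase of translation and lies on the X chromosome, with a homologue, Ddx3y, on the Y. It stood at 570.4, 595 and 534 CPM in controls and at 638, 519.6 and 554 CPM in mutant-labelled libraries. The groups overlapped, and the log2 fold change was 0.01 (standard error 0.092.) Reads of the pair can be confused only where the sequences match, and the coding sequences of the GENCODE M21 transcripts were identical at 84.6% of 1971 aligned bases, with a longest shared run of 35 bases. The first 60 coding bases of each, 5′ to 3′ on GRCm38, are shown with the differing bases in capitals, to make visible how often a read would meet one:
Ddx3x (chromosome X, plus strand): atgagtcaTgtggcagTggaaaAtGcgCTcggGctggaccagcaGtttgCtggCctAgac
Ddx3y (chromosome Y, minus strand): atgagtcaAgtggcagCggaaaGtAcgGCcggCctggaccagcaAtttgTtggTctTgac
In these 60 bases 11 differ. Ddx3y was at 33.4, 42.3, 41.4 and 42.4 CPM in control replicates 1 and 3 and mutant replicates 1 and 3, and at 0 and 0.668 CPM in control replicate 2 and mutant replicate 2. Ddx3x was at 595 and 519.6 CPM in these 2 libraries and at 534 to 638 CPM in the other 4, and each group held 1 of the 2.

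Of the 9 genes of synaptic scaffold, adhesion, membrane and cytoskeleton, 8 lay above 0, with a median of 0.19 and none called. With the exon-length offset 6 lay above 0 (median 0.06), and without mutant replicate 1 there were 7 (median 0.09). This group had the highest median in mutant replicate 1, at 0.363, against 0.151 and 0.0584 in mutant replicates 2 and 3. The SHANK proteins are master scaffolds of the postsynaptic density, and at this age most synapses have yet to form. Per kb of exon, the control level of Shank1 was 22.7 ± 0.170 CPM per kb, while Shank2 and Shank3 were at 5.69 ± 0.340 and 5.03 ± 0.110 CPM per kb (SD, n = 3). Shank1 was thus the most abundant of the 3 by a wide margin.

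Shank3, mutated in Phelan-McDermid syndrome, had 45.1, 46.5 and 47.1 CPM in controls and 55.5, 53.6 and 49.6 CPM in mutant-labelled libraries. The groups did not overlap. Its log2 fold change was 0.19 (standard error 0.084; edgeR adjusted p = 0.486), and 0.14 with the exon-length offset. Shank1 had 237, 239 and 241 CPM in controls and 346, 265 and 217 CPM in mutant-labelled libraries. Its controls agreed within 4 CPM, while mutant replicate 1 lay far above and mutant replicate 3 below them, and the log2 fold change was 0.21 (standard error 0.13.) Without mutant replicate 1 it was 0.01. Shank2 had 57.3, 64.5 and 61.8 CPM in controls and 67.02, 64.2 and 59.4 CPM in mutant-labelled libraries, a log2 fold change of 0.05 that was -0.01 with the offset.

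Tanc2, a large scaffold that binds PSD-95 and SHANK proteins, had the highest fold change of the 37. It stood at 103, 116 and 124 CPM in controls and at 159.7, 138 and 119 CPM in mutant-labelled libraries. Mutant replicate 3 lay below control replicate 3. The log2 fold change was 0.28 (standard error 0.11; edgeR adjusted p = 0.43), and 0.17 both with the exon-length offset and without mutant replicate 1. Ank2 and Ank3, the ankyrins that anchor channels and adhesion molecules to spectrin along axons and at the axon initial segment, have the longest exons here at 35 and 34.8 kb. Ank2 had 316, 368 and 391 CPM in controls and 508, 384 and 379.9 CPM in mutant-labelled libraries. Ank3 had 351, 391 and 431 CPM in controls and 501, 439 and 405 CPM in mutant-labelled libraries. In both, mutant replicate 1 was the highest and control replicate 1 the lowest library. Their log2 fold changes of 0.24 and 0.20 (standard errors 0.12 and 0.10) became 0.06 and 0.02 with the offset (edgeR adjusted p = 0.822 and 0.941).

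Nbea, which encodes neurobeachin of synaptic protein trafficking, went from 377, 437 and 466 CPM in controls 1 to 3 to 586, 411 and 409 CPM in mutant replicates 1 to 3, with overlap. Dscam, an adhesion molecule of neurite self-avoidance, had 72.9, 71.3 and 68.8 CPM in controls and 79.7, 60.4 and 59.2 CPM in mutant-labelled libraries. Mutant replicate 1 was its highest library and mutant replicates 2 and 3 its lowest. Katnal2, a relative of the microtubule-severing enzyme katanin, was the least abundant member at 7.06 ± 0.863 and 7.63 ± 1.70 CPM (SD, n = 3), and its standard error of 0.19 was the largest. Of 24 partners of SHANK and ankyrin scaffolds none passed, 3 were higher and 0 lower at an unadjusted p under 0.05, and the median was 0.04, or -0.003 with the exon-length offset. Dlgap2, a further postsynaptic scaffold, had 0.43 from 5.66 ± 0.579 CPM in controls.

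**Figure D4:**
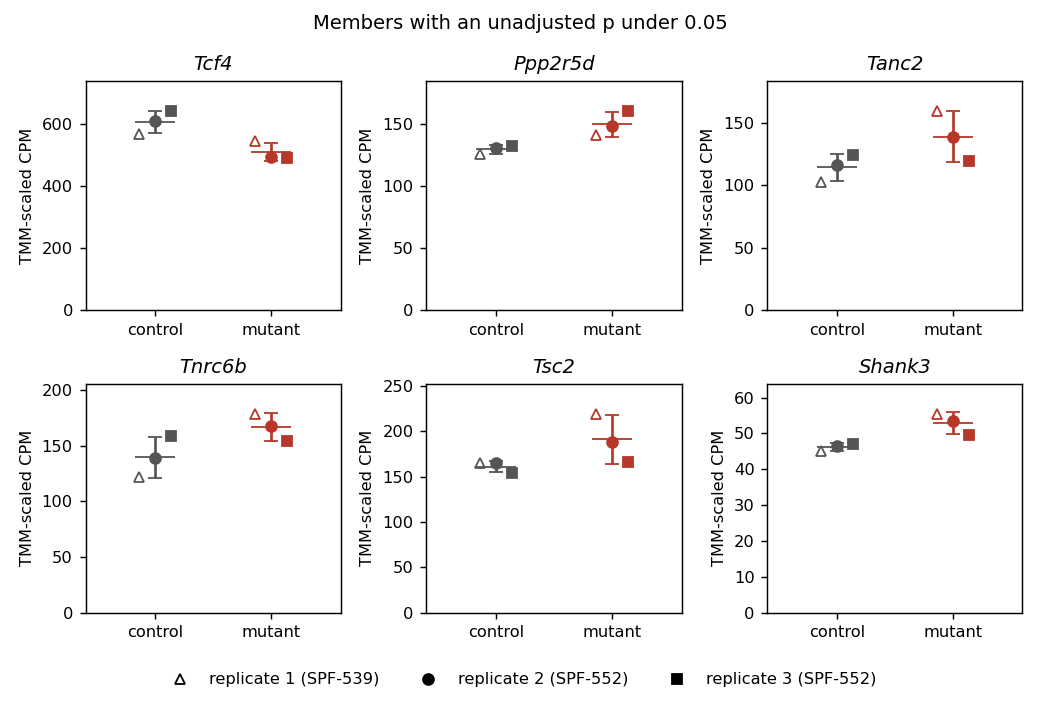
TMM-scaled CPM of the 6 genes with an unadjusted p under 0.05, 3 libraries a group, each point a library and each bar the mean with its SD. Open triangles are replicate 1 of each group (SPF-539); the groups are apart for Tcf4, Ppp2r5d, Tsc2 and Shank3 and overlap for Tanc2 and Tnrc6b.

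Groups without any overlap were found for 5 of the 37 genes, Ppp2r5d, Tsc2, Shank3 and Celf4 higher and Tcf4 lower, against 8.17% of all tested genes higher and 8.49% lower, 16.7% in all. The share among the 37 is therefore close to the background. With 3 libraries against 3, groups without overlap always give p = 0.1 in an exact permutation test (two-sided), the smallest value possible. That test therefore adds nothing for these 5 genes. Within SPF-539 (1 library of each group) the log2 ratio was above 0 for 32 of the 37 genes with a median of 0.226, where 48.5% of all tested genes lay above 0. Within SPF-552 it was above 0 for 19, with a median of 0.00349, where 50.8% of all tested genes lay above 0. With the title number as a block none of the 37 was called, where 0.762% of all tested genes were. With the block and the exon-length offset together, Tcf4 (-0.40, edgeR adjusted p = 0.0015) and Ppp2r5d (0.24, edgeR adjusted p = 0.0329) passed, where 2.67% of all tested genes did.

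Levels of the 37 genes span a wide range in this tissue. Per kb of exon in controls, Ctnnb1 came first at 244 ± 5.48 CPM per kb, followed by Ddx3x at 107 ± 5.79, Hnrnpu at 82.7 ± 7.06, Ldb1 at 59.7 ± 2.67 and Adnp at 52.97 ± 1.61 CPM per kb (SD, n = 3 each). At the other end, Katnal2 was at 1.74 ± 0.212, Asxl3 at 4.49 ± 0.585, Shank3 at 5.03 ± 0.110, Shank2 at 5.69 ± 0.340 and Tnrc6b at 5.90 ± 0.782 CPM per kb. The neighbours Asxl3 and Shank3, and Shank2 and Tnrc6b, did not differ beyond their SD. Exon length here is the union over all isoforms, which lowers the value of a gene with many alternative exons such as Tcf4. In CPM, 36 of the 37 lay above the median tested gene of 23.7 CPM. CPM is not scaled by exon length, whose median was 9.62 kb in the 37 against 4.44 kb over tested genes.

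A further 58 autism risk genes from exome studies were read in the same fit. None passed. At an unadjusted p under 0.05, 10 were higher and 3 lower, where 5.22% of all tested genes were higher and 4.38% lower. Their median of 0.10 was close to that of the 37. Their median in mutant replicate 1 was 0.211, and 0.0186 and -0.00395 in mutant replicates 2 and 3. With the exon-length offset the median was 0.02, with 1 called higher and 1 called lower, where 0.447% of all tested genes were called. Sin3a, the scaffold of the Sin3 complex, had the smallest p, with 102 ± 4.68 CPM in controls and 134 ± 9.46 CPM in mutant-labelled libraries (SD, n = 3; log2 fold change 0.40, edgeR adjusted p = 0.102), and with the offset it passed (0.39, edgeR adjusted p = 0.036). Map1a, a microtubule-associated protein, and Tcf7l2, a Wnt effector of the thalamus, followed at 0.42 and 0.39. The authors' deposited table holds 5 of the 58, with Sin3a, Map1a, Tcf7l2 and Foxp2 higher and the potassium channel gene Kcnq3 lower. By its likelihood-ratio test 4 of them had an FDR under 0.05 (0.00571 for Sin3a to 0.0461 for Tcf7l2), and Foxp2 had 0.0842. That test differs from the quasi-likelihood test used here. Tcf7l2 is also 1 of the 9 diencephalon markers read here. The other 8 summed to 184.8 to 199 CPM in controls and to 199.7, 244 and 274 CPM in mutant replicates 1 to 3, and their part in its level was not tested.

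Of 9 heterochromatin partners of ADNP and POGZ none passed, with 0 at an unadjusted p under 0.05 and a median of 0.00082, Chd4 leading at 0.11, then Cbx3 at -0.09 and Cbx5 at 0.07. Of 14 beta-catenin and TCF partners none passed, 1 was higher at that level (Tcf7l2) and the median was 0.04, with Gsk3b at 0.20 and Lef1 at 0.17 next. Of 12 E proteins and LDB1 cofactors none passed and 3 were lower at that level, Lmo1 (-0.47), Ldb2 (-0.32) and Tcf4, with a median of -0.04. Leaving out mutant replicate 1 moved most list medians towards or past 0. They were then 0.00101 for the further risk genes, 0.00305 for the E proteins and LDB1 cofactors and 0.00602 for the SHANK and ankyrin partners. They were -0.00636 for the Mediator kinase module, -0.03 for the beta-catenin and TCF partners and -0.04 for the TSC, mTOR and RAS genes. For the ADNP and POGZ partners, the PP2A subunits and the CUL3 and NatA partners they were 0.02, -0.02 and -0.01. The list of microRNA silencing and 4EHP repression moved little, with a median of 0.07 against 0.09 with all libraries. Of the other marker lists, 7 of 9 progenitor markers lay above 0, with a median of 0.22. The 1 progenitor marker called was Eomes, which fell (-0.65, edgeR adjusted p = 0.0472). None of 9 inhibitory neuron, 9 diencephalon or 11 endothelial, microglial, meningeal, choroid and blood markers passed, with medians of 0.25, 0.39 and -0.08. At an unadjusted p under 0.05, 2 progenitor (Nes and Pax6), 5 inhibitory neuron and 5 diencephalon markers were higher. There was 1 progenitor marker lower (Eomes), and 0 of the last list moved either way. Of all tested genes, 5.22% were higher and 4.38% lower at that level.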

How the data were processed

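Libraries came from total RNA of embryonic forebrain. Per the labels' protocols the kit was TruSeq RNA v2, so strand was not recorded. Tools named in the submitters' processing notes are edgeR 3.4.2, HTSeq 0.5.4p5 and TopHat2 2.0.9, with the build mm10 and no role for any. The authors deposited a table of estimated counts per gene, not scaled between libraries, in which 22.7% to 24.9% of values are not whole; no source used here names its counter. Per the file headers, the authors' deposited comparison table holds a log2 fold change and mean log2 CPM, a likelihood-ratio score, and a p-value with its FDR.

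Identifiers were matched to GENCODE M21 (GRCm38) symbols (99.39% matched), and exon length is the union of annotated exons. Of the 37 genes, 8 share exon bases with another protein-coding gene. Counts were rounded and fitted over all 6 libraries with edgeR 4.0.16 in R 4.3.3 (filterByExpr with minimum count 10 and total 15, TMM, robust quasi-likelihood, Benjamini-Hochberg over 15216 genes, FDR 0.05). CPM values are TMM-scaled, and log2 CPM uses a prior count of 2. The exon-length offset subtracts a lowess curve (span 0.5) per library. The biological coefficient of variation, the estimated variation between replicates beyond counting error, was 12.3%. Chi-square statistics between replicates were 4.81 to 29.3 per gene, so none were copies. Groups follow the Sap130 genotype, and replicates were numbered in accession order, which pairs no samples. The series' design text calls the controls littermates, but no label says which samples shared a litter, so litter was not modelled. The p-values of the main fit set the group difference against the spread between these samples, taken as independent. Whether shared litters break that assumption was not tested.

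Members and lists were chosen with earlier results of these data known. All 37 members are given. Those given in full have an unadjusted p under 0.05, are among the smallest p of their role, or are paralogs that are both members; each pathway list names its 3 smallest p. Of the marker lists the called genes are named, with 1 called gene not reported here. Dlx1, Id2, Tcf3, Tcf12, the genes sharing exon bases, and members given library by library outside this rule were chosen after their values were seen. The main and offset fits were tested on simulated data. At an FDR of 0.05 they found 46% to 49.6% of 1.5-fold changes and 75.6% of 2-fold changes. Of their calls 6.69% to 8.47% were false, the most with the offset and a length trend in 1 library. Smaller changes, like those of the 37 genes, were not simulated. Nor was a difference between title numbers, so these rates may not hold for the real libraries. Alternatives used DESeq2 1.42.0 and limma 3.58.1 (voom), other scalings and filters, the title number as a block, a Y-linked class as a covariate and each library left out.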

Additional observations from a re-analysis of the deposited data

Results flagged for a closer look

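In 11 of the 37 genes the SPF-552 libraries and the SPF-539 pair moved in opposite directions, with both SPF-552 mutants beyond both SPF-552 controls; 20.8% of all tested genes did the same. With 1 library of each group in SPF-539, the difference between title numbers was not tested. Values are log2 ratios of labelled mutant over control, within SPF-539 and then within SPF-552. For Nbea they were 0.635 and -0.137, and for the Mediator genes Med13 and Med13l they were 0.384 and -0.124, and 0.342 and -0.0393. Myt1l had 0.295 and -0.257, Auts2 0.202 and -0.193, and Dscam 0.128 and -0.227. Tcf20 had 0.179 and -0.0931, and Adnp 0.160 and -0.105. In the other direction, Katnal2 had -0.486 and 0.38, Ldb1 -0.2245 and 0.0554, and Deaf1 -0.192 and 0.0929. The 3 genes of this second kind have exons of 4.06, 4.61 and 4.39 kb, against 5.35 to 31.4 kb in the other 8. The part of the length trend of mutant replicate 1 in this pattern was not tested.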

How the results depend on the processing

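The median log2 fold change of the 37 genes was 0.0939; leaving out 1 library gave 0.0176 (without mutant replicate 1) to 0.114. It was 0.00387 with the exon-length offset, 0.00152 with the offset and the title-number block (the replicate block), 0.00733 in SPF-552 alone and 0.00473 with the offset and without mutant replicate 1, which was added after the data were seen. Called members numbered 1 with the offset (Tcf4), where 0.447% of all tested genes were called. They numbered 2 with offset and block (Tcf4, Ppp2r5d), where 2.67% of all tested genes were called. There were 3 in SPF-552 alone and 3 with the offset without mutant replicate 1 (Tcf4, Ppp2r5d and Myt1l in both). The shares of all genes tested were 3.7% and 2.73% in these fits. On leaving out 1 library, called members numbered 0 to 1, the 1 being without mutant replicate 1 (2.14% of all genes tested). The title-number block alone called 0, where 0.762% of all tested genes were called. Members at an unadjusted p under 0.05 numbered 1 to 10 on leaving out 1 library, 1 without control replicate 1 or 2 and 10 without mutant replicate 3.

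Of all genes, 21 were called, and 3 to 330 on leaving out 1 library (330 without mutant replicate 1, 9 or fewer otherwise). Calls numbered 130 with no filter, 116 with the block, 564 in SPF-552 alone, 68 with the offset, 407 with offset and block, 422 with the offset without mutant replicate 1, 11 with the Y-linked covariate, 150 by the likelihood-ratio test, 11 by limma-voom, 194 by DESeq2 and 56 at an FDR of 0.1.

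Fold changes near 0 turned sign, and on leaving out 1 library they reached 0.102 for Med13, 0.146 for Med13l and 0.145 for Tsc1. Med13 had -0.124 in SPF-552 alone, -0.0217 with the offset (with or without block), -0.0179 without control replicate 1, -0.0558 without mutant replicate 1 and -0.0735 with the offset without it. In the same order and without the control fit, Med13l had -0.0388, -0.0115 (-0.012 with block), -0.00636 and -0.0392. Shank2 had -0.0318 in SPF-552, -0.0143 with the offset, -0.0136 with block and -0.00585 with the offset without mutant replicate 1. Tsc1 had -0.0183 in SPF-552, -0.0212 without mutant replicate 1 and -0.0452 with the offset too, and Shank1 -0.00747 in the last fit. Of the 310 alternative values of the 15 genes given in full, 283 kept sign and side of the threshold and 8, all of Tcf4 or Ppp2r5d, newly passed. The cause of these shifts was not tested. Standard errors of 0.0713 to 0.191 per gene, with 3 libraries a group, limit the size of difference that can be seen; the share of depth in them was not tested.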
